A study of Mus musculus with 35 samples.

Results

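The chaperones and foldases of the endoplasmic reticulum (ER) described here were measured in primary mouse embryonic fibroblasts (MEFs) exposed to the alkylating agent methyl methanesulfonate (MMS). The 10 genes were Hspa5, Hsp90b1, Hyou1, Pdia4, Pdia6, Calr, Dnajc3, Sdf2l1, Creld2 and Manf, which are 10 of the 18194 genes that a probe set of the array names alone. The 10 genes were chosen with earlier results of these data known, and the rule that picks their probe sets uses gene symbols. Each gene was read from the probe set whose mean signal was highest, and its further probe sets served as a check. All 10 genes reached the detection limit used here, and 14135 genes did so in all.

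MEFs were prepared from C57BL6/J mice as primary cultures, grown for 2 passages at 5% oxygen and, per the labels, taken from embryos at day 15.5. One day after plating the medium was exchanged for medium without MMS (control) or with MMS at 40 µg/mL, and RNA was taken at the start of exposure (0 h, control only) and at 1, 8, 24 and 72 h. The 9 groups held 4 arrays each, except MMS at 72 h with 3, which gives 35 arrays. The fourth replicate of MMS at 72 h was not analysed here. The cells were unsorted primary cultures, and in such bulk RNA fewer cells of a type and less RNA per cell cannot be told apart.

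Proteins that enter the secretory pathway fold in the ER lumen, where the Hsp70 chaperone BiP (Hspa5) binds unfolded chains in cycles driven by ATP, J-domain proteins and nucleotide exchange factors. Calreticulin (Calr) holds newly made glycoproteins, the Hsp90 of the ER (Hsp90b1) acts on later folding intermediates, and protein disulfide isomerases (Pdia4, Pdia6) form and rearrange disulfide bonds. When unfolded chains accumulate, the sensors Ern1, Eif2ak3 and Atf6 start the unfolded protein response, which raises transcription of many of these genes. Fibroblasts carry a large load of secreted matrix proteins, collagens above all. The classical binding element of this response is the ER stress element, a CCAAT box and a CCACG box 9 bases apart.

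Since ER chaperone genes are textbook carriers of this element, the letters upstream of the start sites are shown first. RefSeq promoter windows (build GRCm38.p6, 250 bases before to 50 after the start) were found for 8 of the 10 genes. Hyou1 and Manf were not in the table. Both strands were searched for CCAAT, 9 bases of any kind, CCACG. The element was in the window of 6 of these 8 genes (75%), against 37 of 27025 genes with a window (0.137%) and 18 of 11359 genes that were also tested on the array (0.158%). As such genes are textbook carriers, a high share was foreseeable and is no result of these arrays. The matches follow, read 5′ to 3′ on the strand that carries them, with both boxes in capitals.

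Hspa5: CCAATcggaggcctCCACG
Hsp90b1, far copy: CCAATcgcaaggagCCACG
Hsp90b1, near copy: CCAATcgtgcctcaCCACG
Pdia6: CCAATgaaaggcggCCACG
Calr: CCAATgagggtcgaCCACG
Dnajc3: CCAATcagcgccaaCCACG
Creld2: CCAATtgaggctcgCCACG

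The matches lay between 65 and 47 bases before the start in Hspa5, 98 and 80 in Pdia6, and 105 and 87 in Dnajc3, each on the strand of the gene. In Calr the match lay 162 to 144 bases before the start on the opposite strand, and in Creld2 126 to 108 bases before it, also on the opposite strand. Hsp90b1 held 2 copies, 212 to 194 bases before the start on its own strand and 107 to 89 bases before it on the opposite strand. The windows of Pdia4 and Sdf2l1 held no match to these letters. A second element, ATTGG, 1 base, CCACG, was in none of the 8 windows and in 12 of 27025 genes (0.0444%). The 7 letters TGACGTG were in the window of Hspa5 alone among the 8 genes, 157 bases before the start, and in 601 of 27025 genes (2.22%). No 2 of these matches overlapped. Such matches describe the letters and do not show binding.

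For 3 genes the 250 upstream bases are given whole, read on the strand of the gene, with the ER stress element in capitals. Hspa5 (chr2:34771840-34772089, plus strand) carries its copy close to the start, Creld2 (chr15:88819396-88819645, plus strand) carries it on the opposite strand and so shows CGTGG first, and Sdf2l1 (chr16:17132384-17132633, minus strand) has no match although its level moved among the most.

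Hspa5: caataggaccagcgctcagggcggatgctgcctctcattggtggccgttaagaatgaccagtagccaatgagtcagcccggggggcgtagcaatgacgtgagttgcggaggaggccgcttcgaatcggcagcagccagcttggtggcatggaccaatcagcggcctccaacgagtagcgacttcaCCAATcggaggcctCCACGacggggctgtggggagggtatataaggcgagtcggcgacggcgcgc
Creld2: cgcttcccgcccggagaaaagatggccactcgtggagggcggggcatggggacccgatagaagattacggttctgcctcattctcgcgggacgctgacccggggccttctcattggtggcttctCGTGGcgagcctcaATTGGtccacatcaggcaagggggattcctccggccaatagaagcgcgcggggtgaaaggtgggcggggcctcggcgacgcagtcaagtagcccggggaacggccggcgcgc
Sdf2l1: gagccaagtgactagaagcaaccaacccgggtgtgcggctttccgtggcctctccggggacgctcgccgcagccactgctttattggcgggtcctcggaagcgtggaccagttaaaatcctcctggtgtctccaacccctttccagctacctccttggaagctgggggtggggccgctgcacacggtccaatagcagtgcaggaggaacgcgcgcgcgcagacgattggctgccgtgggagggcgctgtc

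Some arrays stand apart and are named before the results. The 8 arrays taken at 8 h, control and MMS alike, lay at 47.3 or higher on principal component 1 and the other arrays at 3.85 or lower, and that component carried 44.5% of the variance. At 8 h all 15 macrophage markers were above the detection limit on every array, and their summed linear signal was 10117 to 11389 in control and 7528 to 8269 in MMS, against 435 to 2129 in control at 0 h. Replicate 3 alone gave the 2129, and the other control arrays at 0 h gave 435 to 457. The summed signal of 15 skeletal muscle markers was 7934 to 8994 in control at 8 h, 4716 to 4942 in MMS at 8 h and 1515 to 1745 in control at 0 h. Replicate 3 of control at 0 h, MMS at 1 h, MMS at 24 h and MMS at 72 h carried intestinal epithelial transcripts, with summed signals of 95836, 6544, 30303 and 2216 against at most 2047 elsewhere. On MMS 72 h replicate 3, 18 of 22 such markers were above the limit. The same count held for control 1 h replicate 3 and control 24 h replicate 4, and control 1 h replicate 4 had 17. Fits without the intestinal arrays leave out the first 4 arrays named and keep these controls. All 12 fibroblast markers were above the limit on every array.

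The 10 genes had their common response at 8 h. All 10 were higher in MMS-treated MEFs than in control MEFs of the same time, with log2 differences of 0.39 to 1.66 and a median of 0.94. The median of all genes tested was 0.06. At adjusted p under 0.05 (limma, Benjamini-Hochberg over 14135 genes), 28.7% of all genes were higher at 8 h and 25.0% were lower. The 10 genes were chosen with earlier results known, so their count beside these shares is a description and no test. No control array at 8 h reached the lowest MMS array in any of the 10 genes, which held for 25.0% of all genes in that direction. Nothing in the labels says that replicates were separate cultures beyond calling them biological, so p measures the spread between these arrays.

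**Figure D1:**
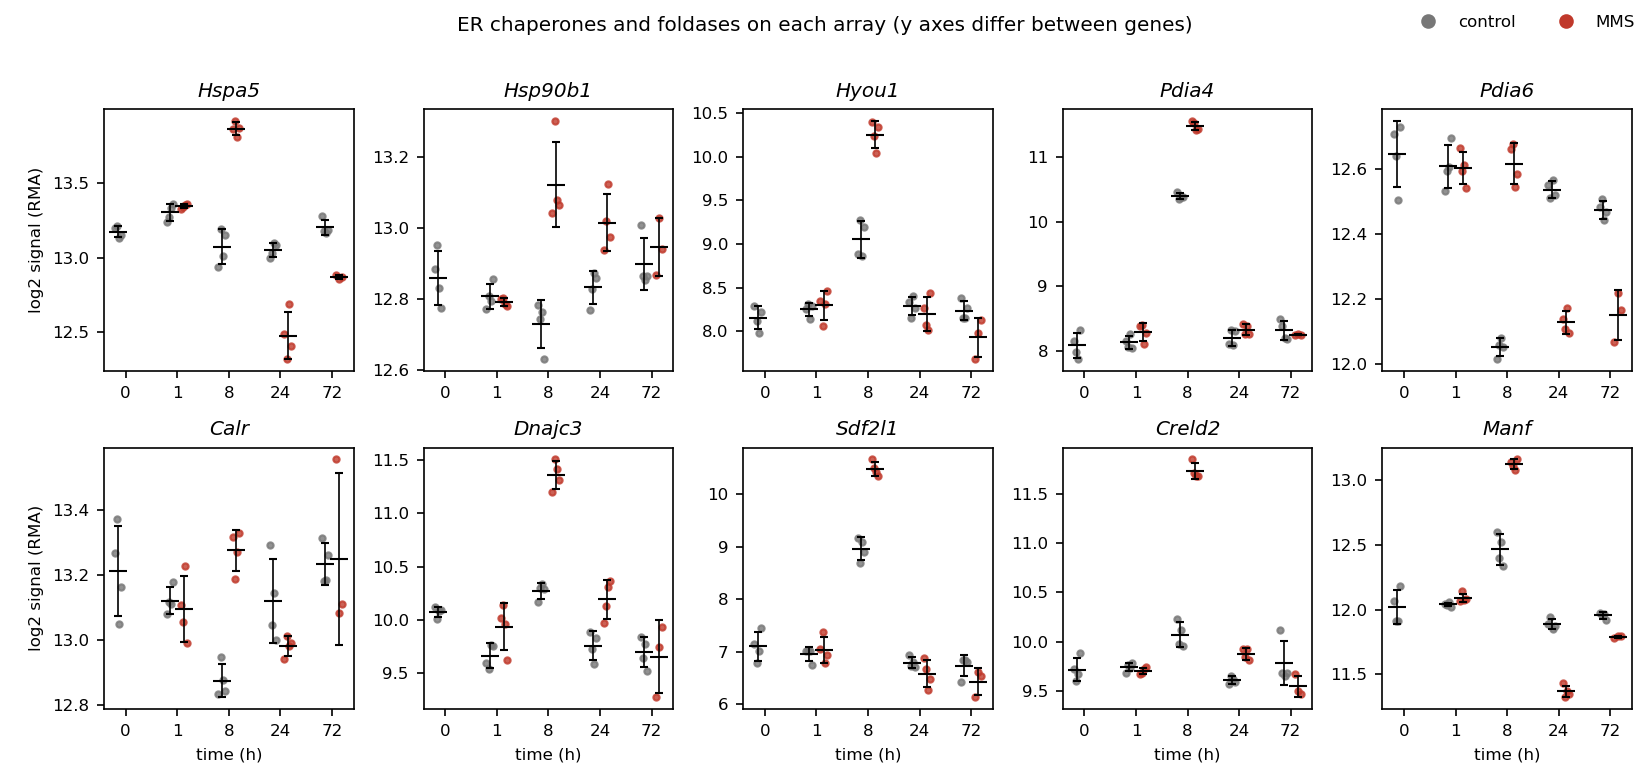
Log2 signal (RMA, y axis, a separate range for each gene) of the 10 genes on each array against time (h, x axis, categories). Grey points are control and red points MMS arrays, and bars show the mean and SD of each group of 3 or 4 arrays. At 8 h the MMS arrays lie above the control arrays in all 10 panels.

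BiP and the proteins that act on its cycle were read first. Hspa5, which encodes BiP, had log2 signals of 12.94, 13.19, 13.01 and 13.15 on the control arrays at 8 h and of 13.86, 13.92, 13.81 and 13.87 on the MMS arrays. The lowest MMS array exceeded the highest control array, and Hspa5 rose by 0.79 ± 0.06 (SE), or 1.73-fold (limma, adjusted p = 1.2e-12). Hyou1, the large Hsp70 relative that serves BiP as a nucleotide exchange factor, had 8.88, 9.27, 8.86 and 9.20 in control and 10.39, 10.23, 10.05 and 10.33 in MMS. It rose 2.30-fold, a log2 difference of 1.20 ± 0.11 (SE, limma adjusted p = 9.7e-11).

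Dnajc3, a J-domain co-chaperone of BiP, had 10.16, 10.30, 10.33 and 10.29 in control and 11.20, 11.50, 11.41 and 11.31 in MMS at 8 h. Its rise was 1.09 ± 0.11 on the log2 scale, or 2.12-fold (limma, adjusted p = 1.8e-09). Sdf2l1, an ER-resident partner of the J-domain protein Dnajb11, had 9.17, 8.68, 9.09 and 8.90 in control and 10.66, 10.49, 10.43 and 10.35 in MMS. The groups were far apart in each of the 2 genes, and Sdf2l1 rose 2.88-fold, or 1.52 ± 0.14 on the log2 scale (limma, adjusted p = 2.1e-10).

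The other chaperones changed less. Hsp90b1, the Hsp90 of the ER, had 12.78, 12.74, 12.76 and 12.63 in control at 8 h and 13.04, 13.30, 13.08 and 13.06 in MMS. Its second MMS array lay above the other MMS arrays, yet every MMS array was above every control array, and the rise was 0.39 ± 0.06 on the log2 scale or 1.31-fold (limma, adjusted p = 6.1e-07). Calr, the lectin chaperone calreticulin, had 12.83, 12.95, 12.88 and 12.85 in control and 13.32, 13.19, 13.27 and 13.33 in MMS. This was a rise of 0.40 ± 0.08, or 1.32-fold (limma, adjusted p = 8.3e-05).

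The 2 disulfide isomerases rose to different degrees. Pdia4 had 10.47, 10.35, 10.38 and 10.38 in control at 8 h and 11.55, 11.52, 11.42 and 11.44 in MMS, a rise of 1.09 ± 0.08 or 2.13-fold (limma, adjusted p = 3.0e-12). Pdia6 had 12.02, 12.06, 12.08 and 12.05 in control and 12.66, 12.68, 12.55 and 12.59 in MMS, a rise of 0.57 ± 0.05 or 1.48-fold (limma, adjusted p = 2.5e-11). Replicates within each group lay close together, so that both differences were many times the spread.

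The remaining 2 genes encode small ER-resident proteins known as markers of ER stress. Creld2, a cysteine-rich protein with EGF-like domains, had 10.23, 9.98, 10.13 and 9.96 in control at 8 h and 11.85, 11.71, 11.68 and 11.68 in MMS. Its rise of 1.66 ± 0.08, or 3.15-fold, was the largest of the 10 (limma, adjusted p = 3.5e-17), and it ranked 77 of 14135 genes by size at that time. Manf, which binds BiP and is secreted when ER calcium falls, had 12.60, 12.40, 12.53 and 12.34 in control and 13.14, 13.11, 13.08 and 13.16 in MMS. The rise in Manf was 0.66 ± 0.05, or 1.58-fold (limma, adjusted p = 8.1e-12).

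The further probe sets mostly moved the same way at 8 h. Of 13 further probe sets of these genes, 12 were higher in MMS than in control. The exception was a second Pdia6 probe set near the detection limit, with means of 4.71 in MMS and 4.82 in control. The second Hsp90b1 probe set gave 0.78 and one of Hspa5 gave 1.16, each above the value of the probe set used. The further probe sets of Hyou1 (1.40 and 1.26) and Calr (0.42 and 0.47) were also above it. Below it were the other Hspa5 probe set (0.40), those of Dnajc3 (0.63, 0.58, 0.46 and 0.40) and that of Pdia4 (0.24). Sdf2l1, Creld2 and Manf had 1 probe set each.

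Markers of other cells moved in the same comparison. Of 15 macrophage markers 9 fell and 1 rose after MMS at 8 h (median log2 difference -0.57), and of 12 fibroblast markers 9 fell and none rose (median -0.57). Among 8 skeletal muscle markers that were tested, 1 rose and 2 fell. The part of these shifts in the values of the 10 genes was not tested.

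At 1 h none of the 10 genes passed by limma, and 1 had an unadjusted p under 0.05. The log2 differences lay between -0.04 and 0.27 with a median of 0.04, and few genes passed at that time in all, 0.361% higher (51 genes) and 0.0283% lower (4 genes). The largest was that of Dnajc3, with 9.60, 9.54, 9.77 and 9.76 in control and 10.02, 10.14, 9.97 and 9.63 in MMS, which overlapped (0.27, 95% confidence interval 0.04 to 0.50, limma adjusted p = 0.54). Pdia4 differed by 0.16 (interval -0.01 to 0.33, limma adjusted p = 0.72). For Hspa5 the interval was -0.08 to 0.16, the upper end of which is below the rise at 8 h.

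The change of the MMS effect between times was tested directly. The contrasts with 8 h use arrays that stand apart from the others, and the part of this in the values was not tested. The MMS effect at 8 h exceeded that at 1 h by 0.41 (Hsp90b1) to 1.70 (Creld2) on the log2 scale, and all 10 passed in that direction (limma interaction contrast, 21.3% of all genes). From 8 to 24 h the MMS effect fell in all 10, from -0.21 for Hsp90b1 to -1.74 for Sdf2l1 (22.2% of all genes). The call for Hsp90b1 between 8 and 24 h rests on single arrays: without MMS 8 h replicate 2 its effect fell by 0.15 (limma, adjusted p = 0.096), and 5 other arrays also ended the call when left out.

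**Figure D2:**
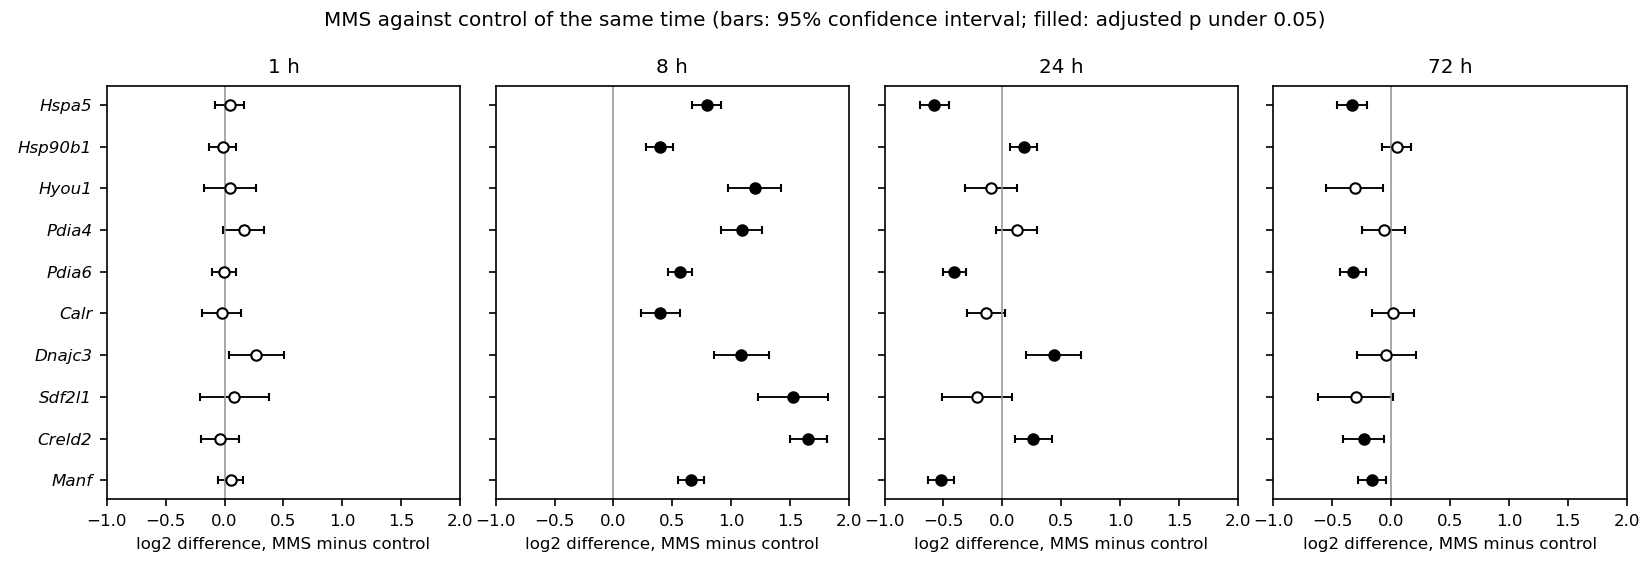
Log2 difference between MMS and control of the same time (x axis) for the 10 genes (y axis) at 1, 8, 24 and 72 h. Points are estimates from limma with 95% confidence intervals as bars, and filled points have adjusted p under 0.05. All 10 points are filled and right of 0 at 8 h, whereas at 24 h 3 are filled on each side.

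At 24 h the 10 genes parted. Hspa5, Manf and Pdia6 had fallen below control, Dnajc3, Creld2 and Hsp90b1 were above it, and the other 4 did not pass. Of all genes, 25.0% were higher and 19.4% lower at that time, so that 3 and 3 of 10 are near the background. The groups did not overlap in these 6 genes, as in 23.8% of all genes upward and 18.9% downward. The median of the 10 was -0.12 and that of all genes 0.01.

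Hspa5 had 13.00, 13.03, 13.10 and 13.08 in control at 24 h and 12.49, 12.32, 12.69 and 12.41 in MMS. All 4 MMS arrays were below all control arrays, and the gene fell by 0.58 on the log2 scale (SE 0.06, limma adjusted p = 1.8e-09). Manf had 11.89, 11.94, 11.85 and 11.88 in control and 11.43, 11.33, 11.37 and 11.35 in MMS. It fell by 0.52 (SE 0.05, limma adjusted p = 1.8e-09), again with no overlap. Pdia6 had 12.55, 12.51, 12.57 and 12.52 in control and 12.14, 12.11, 12.17 and 12.10 in MMS, and it fell by 0.41 (SE 0.05, limma adjusted p = 2.9e-08).

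The 3 genes above control moved by smaller amounts. Creld2 had 9.57, 9.66, 9.63 and 9.60 in control and 9.93, 9.84, 9.92 and 9.81 in MMS, a rise of 0.26 ± 0.08 (limma, adjusted p = 0.0062). Hsp90b1 had 12.77, 12.83, 12.87 and 12.86 in control and 12.94, 13.02, 13.12 and 12.97 in MMS, a rise of 0.18 ± 0.06 (limma, adjusted p = 0.0083). Neither pair of groups overlapped, but neither call was stable to the scaling of the arrays. With each array centred on its median the adjusted p became 0.054 for Creld2 and 0.28 for Hsp90b1 (limma). Without the 4 arrays with intestinal transcripts Hsp90b1 was at 0.15 (limma, adjusted p = 0.066).

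Dnajc3 at 24 h depended on the probe set. The probe set used, 1449372_at, had 9.89, 9.72, 9.58 and 9.84 in control and 9.97, 10.13, 10.31 and 10.37 in MMS, a rise of 0.44 ± 0.11 (limma, adjusted p = 0.0021). The other 4 probe sets of Dnajc3 went the opposite way. In place of the one used, 1433887_at fell by 0.61 (limma, adjusted p = 2.7e-06), 1419163_s_at fell by 0.83 (7.4e-08), 1449373_at fell by 0.52 (0.0026) and 1419162_s_at fell by 0.28 (0.0070). All 5 were higher in MMS at 8 h, by 0.40 to 1.09. The suffix _s_at marks a probe set that may match more than 1 transcript. The direction of Dnajc3 at 24 h is therefore not settled by these arrays.

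**Figure D3:**
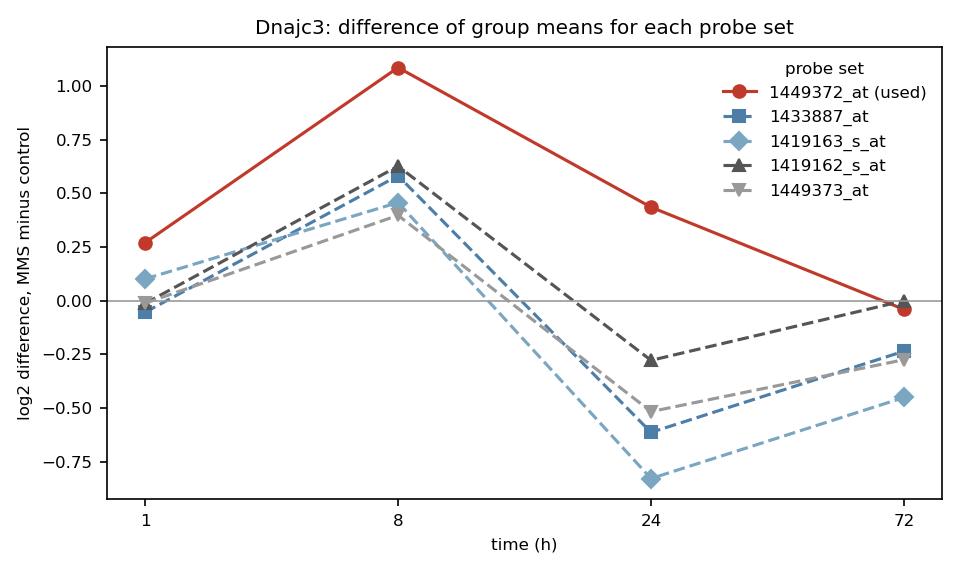
Log2 difference of group means, MMS minus control (y axis), for the 5 Dnajc3 probe sets at 1, 8, 24 and 72 h (x axis, categories). The solid red line is the probe set used and dashed lines are the other 4. All lie above 0 at 8 h, and at 24 h the used one is at 0.44 and the others are between -0.83 and -0.28.

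Hyou1 (-0.09), Pdia4 (0.12), Calr (-0.14) and Sdf2l1 (-0.21) did not pass at 24 h with the probe sets used. Their 95% confidence intervals were -0.32 to 0.13, -0.05 to 0.30, -0.30 to 0.02 and -0.51 to 0.08. Both further Calr probe sets passed as lower, at -0.21 each (limma, adjusted p = 0.039 and 0.028), and so did the second Pdia4 probe set, at -0.29 (limma, adjusted p = 0.017), whose mean stayed below the detection limit in every group. The 4 genes had risen by 0.40 to 1.52 at 8 h. Fibroblast markers moved with MMS at 24 h too, with 11 of 12 lower and 1 higher (median -0.92). The summed macrophage signal was 1124 to 1255 in MMS and 394 to 420 in control at 24 h. Of 15 macrophage markers 3 were higher and 0 lower (median log2 difference -0.07), so the sum does not stand for all of them. Neither the fibroblast nor the macrophage shift was tested for a part in these values.

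At 72 h 4 genes were lower in MMS and none was higher, against 10.4% lower and 10.1% higher among all genes. Hspa5 had 13.28, 13.18, 13.16 and 13.19 in control and 12.88, 12.86 and 12.87 in MMS, and fell by 0.33 (SE 0.06, limma adjusted p = 0.00019). Pdia6 had 12.48, 12.51, 12.44 and 12.47 in control and 12.07, 12.22 and 12.17 in MMS, and fell by 0.32 (SE 0.05, limma adjusted p = 1.8e-05). In both genes the groups did not overlap. With the further probe sets the call was lost, for Hspa5 at -0.25 and -0.28 (limma, adjusted p = 0.067 and 0.17) and for Pdia6 at -0.08 with the one near the detection limit (limma, adjusted p = 0.74).

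The calls for Creld2 and Manf at 72 h were less firm. Creld2 had 10.12, 9.68, 9.65 and 9.68 in control and 9.67, 9.51 and 9.47 in MMS, and fell by 0.23 (SE 0.08, limma adjusted p = 0.048). Its first control array lay far above the other 3 control arrays, and without it Creld2 fell by 0.12 (limma, adjusted p = 0.26). Manf had 11.98, 11.96, 11.96 and 11.92 in control and 11.78, 11.80 and 11.79 in MMS, and fell by 0.17 (SE 0.06, limma adjusted p = 0.039). For Manf the call was lost when any of 6 of the 7 arrays was left out. Without the intestinal arrays Manf fell by 0.17 (limma, adjusted p = 0.099), Creld2 fell by 0.19 (limma, adjusted p = 0.21), and Hyou1, at -0.31 with all arrays (limma, adjusted p = 0.064), fell by 0.41 and passed (limma, adjusted p = 0.022). Sdf2l1 was at -0.30 (limma, adjusted p = 0.20), and Hsp90b1, Calr, Pdia4 and Dnajc3 were between -0.06 and 0.05.

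Between 24 and 72 h the MMS effect moved up for Hspa5 (0.24, limma adjusted p = 0.034) and Manf (0.36, limma adjusted p = 0.00073). It fell by 0.50 for Creld2 (limma, adjusted p = 0.0012) and by 0.48 for Dnajc3 (limma, adjusted p = 0.031), the latter with the probe set whose direction the others do not share. The Hspa5 call was lost on leaving out any of 10 arrays (limma, adjusted p up to 0.096). That of Dnajc3 was lost for 6 arrays and moved to -0.29 without MMS 72 h replicate 1 (limma, adjusted p = 0.19). The other 6 genes did not pass. Of all genes, 12.4% passed upward and 16.5% downward.

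Control arrays themselves differed between 0 and 8 h, the time at which all arrays stand apart and carry macrophage markers. What part that had in the values below was not tested. Of the genes 5 rose (Pdia4, Sdf2l1, Hyou1, Manf and Creld2), 3 fell (Pdia6, Calr and Hsp90b1) and 2 did not pass (Hspa5 and Dnajc3), as read from the probe sets used. Among all genes 35.8% rose and 23.6% fell. Pdia4 had 8.16, 7.99, 7.87 and 8.33 at 0 h, so that its control arrays at 8 h, near 10.4, were 4.95-fold higher (2.31 ± 0.08 on the log2 scale, limma adjusted p = 1.3e-19). Sdf2l1 had 7.15, 6.79, 7.02 and 7.46 at 0 h and was 3.61-fold higher at 8 h (1.85 ± 0.14, limma adjusted p = 3.9e-12). No other group came near the level of the 8 h arrays in these genes. The MMS effects at 8 h, 1.09 for Pdia4 and 1.52 for Sdf2l1, use the same control arrays at 8 h.

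Hyou1 had 8.29, 8.12, 7.98 and 8.22 at 0 h and was 1.87-fold higher in control at 8 h (0.90 ± 0.11, limma adjusted p = 3.3e-08). Manf rose by 0.45 ± 0.05 (limma, adjusted p = 2.6e-08) and Creld2 by 0.35 ± 0.08 (limma, adjusted p = 0.00030). The foldase Pdia6 went the other way, with 12.71, 12.64, 12.51 and 12.73 at 0 h, and fell by 0.59 (SE 0.05, limma adjusted p = 1.0e-11). Calr had 13.27, 13.37, 13.05 and 13.16 at 0 h and fell by 0.34 (SE 0.08, limma adjusted p = 0.00058). For Hsp90b1 the value was -0.13 (limma, adjusted p = 0.047), and leaving out any of 6 of the 8 arrays ended the call, while its second probe set fell by 0.91 (limma, adjusted p = 1.0e-07). Hspa5 was at -0.10 (limma, adjusted p = 0.14), while its probe set 1447824_x_at gave 0.58. Dnajc3 was at 0.20 (limma, adjusted p = 0.14), and 3 of its other 4 probe sets passed as lower, at -0.79, -0.33 and -0.24 (limma, adjusted p = 1.1e-07, 0.039 and 0.029). The further probe sets of Hyou1 gave 0.37, which passed, and 0.03, which did not.

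MMS-treated cells at 8 h were also read against control at 0 h. That comparison sets the 8 h arrays, which stand apart, against arrays that do not, and the part of this in the values was not tested. Pdia6 in MMS at 8 h was at -0.03 relative to control at 0 h (limma, adjusted p = 0.60), and Calr at 0.06 (limma, adjusted p = 0.48). Both were lower on the control arrays at 8 h than at 0 h, and on the MMS arrays at 8 h they stood near their level at 0 h. Hspa5 in MMS at 8 h was 0.69 above control at 0 h and Hsp90b1 0.26 above it, and both passed. The second Hsp90b1 probe set was at -0.13 in that comparison. Pdia4 and Sdf2l1 were 3.40 and 3.38 above it, Hyou1 2.10, Creld2 2.01, Dnajc3 1.28 and Manf 1.10. For Dnajc3 the other 4 probe sets were at 0.52, 0.34, 0.07 and -0.34.

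**Figure D4:**
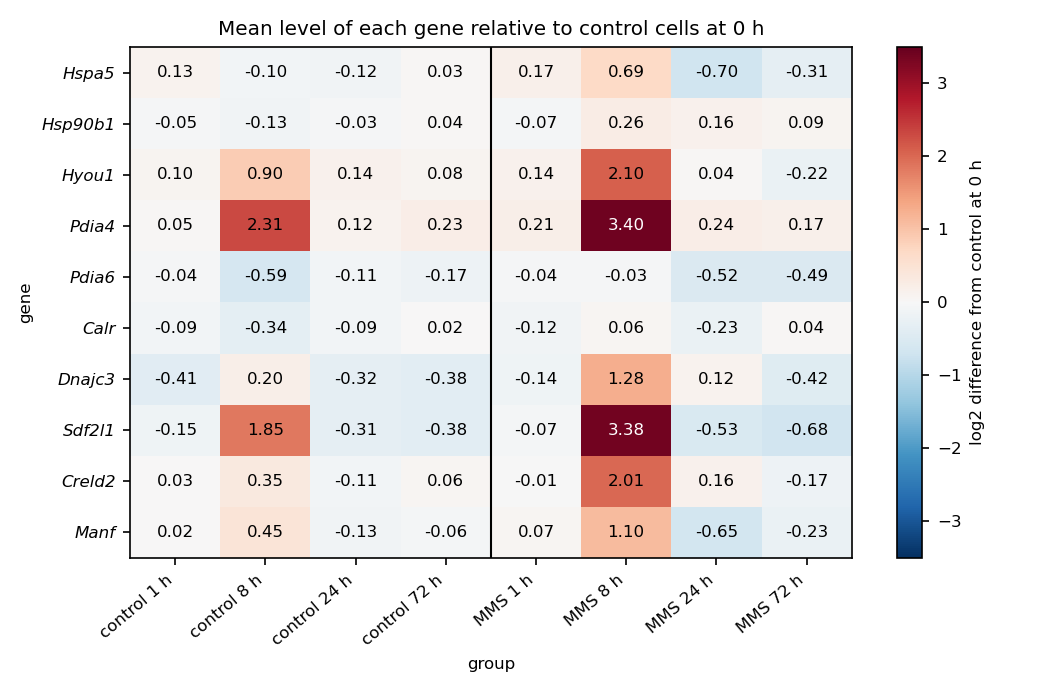
Mean log2 level of the 10 genes (rows) in 8 groups (columns, control left of the line and MMS right of it) relative to control at 0 h, with the value printed in each cell and the colour scale in log2 units. The 8 h columns hold the largest values, 2.31 and 3.40 for Pdia4 in control and MMS. At 24 h 5 of 10 values are below 0 in MMS and 8 of 10 in control, and at 72 h 7 of 10 in MMS and 4 of 10 in control. The share of all genes below 0 was not counted.

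The markers moved most in the control comparison between 0 and 8 h. All 15 macrophage markers were higher at 8 h than at 0 h (median log2 difference 3.72), and of 8 skeletal muscle markers tested 5 were higher and none lower. Of 12 fibroblast markers 5 rose and 5 fell. The part of these shifts in the levels of Pdia4, Sdf2l1 and the other genes at 8 h was not tested, and what sets the 8 h arrays apart cannot be told apart from the time itself.

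At the other control times fewer of these genes passed. At 1 h Dnajc3 alone fell, by 0.41 (limma, adjusted p = 0.016; 4.38% of all genes fell and 7.22% rose), and none of its other probe sets passed. That call was lost without control 1 h replicate 2 (limma, adjusted p = 0.060). At 24 h none of the 10 passed against 0 h by limma, where 9.12% of all genes rose and 2.06% fell; 5 of the 10 had an unadjusted p under 0.05, and with array weights 6 passed as lower. At 72 h Pdia4 was higher by 0.23 (limma, adjusted p = 0.028), and Pdia6 (fell by 0.17), Dnajc3 (fell by 0.38) and Sdf2l1 (fell by 0.38) were lower, against 21.8% of all genes higher and 16.3% lower. For Dnajc3 the other 4 probe sets were all higher, and 2 of them passed (0.34 and 0.46, limma adjusted p = 0.0042 and 0.0082). The Pdia4 call was lost under 5 other settings, with its second probe set (-0.07) and on leaving out any of 4 of the 8 arrays (limma, adjusted p up to 0.14), and that of Sdf2l1 on leaving out any of 3 (limma, adjusted p up to 0.17). Between 24 and 72 h Hspa5 alone passed, at 0.15 (limma, adjusted p = 0.045; 18.4% of all genes rose and 18.8% fell), and 6 of the other settings tried, its 2 further probe sets and leaving out any of 6 of the 8 arrays each ended that call.

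Over all 9 groups and with the probe sets used, 9 of the 10 genes had their highest mean in MMS at 8 h, and Pdia6 in control at 0 h. The share of all genes that are highest there was not counted. The further probe sets of Hspa5, Hyou1, Pdia4 and Calr were highest in MMS at 8 h too. The second Hsp90b1 probe set was highest in MMS at 24 h (12.31 against 12.01 in MMS at 8 h). For Dnajc3, 1419163_s_at and 1449373_at were highest in control at 72 h (9.25 and 5.91, against 8.79 and 5.52 in MMS at 8 h). With the probe sets used, the lowest mean was in MMS at 72 h for Hyou1, Dnajc3, Sdf2l1 and Creld2 and in MMS at 24 h for Hspa5 and Manf. It was in control at 8 h for Hsp90b1, Pdia6 and Calr, and in control at 0 h for Pdia4. Groups next to each other in the order mostly overlapped. For Hyou1, Pdia4 and Sdf2l1 the separate steps were from MMS at 8 h to control at 8 h and from there to the third group, with the other 7 groups overlapping their neighbours. For Dnajc3 the first step alone was separate, whereas Hsp90b1 and Calr had no separate step although their highest and lowest groups were apart. Manf had 5 separate steps of 8, among them those down to MMS at 72 h (11.79 ± 0.01, SD, n = 3) and on to MMS at 24 h (11.37 ± 0.05, SD, n = 4). Hspa5 likewise stepped from control at 24 h (13.05 ± 0.05, SD, n = 4) to MMS at 72 h (12.87 ± 0.01, SD, n = 3) and to MMS at 24 h (12.48 ± 0.16, SD, n = 4).

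The 10 genes did not move as one over the arrays. Over 45 pairs, Pearson's r across the 35 arrays ran from -0.12 (Pdia4 with Pdia6) to 0.97 (Pdia4 with Sdf2l1), with a median of 0.55, and 3 pairs were below 0. These arrays share treatment and time, and once group means were removed the median r was 0.09. The genes whose level over the 35 arrays was most like the mean of the 10 standardized genes were Pgbd5 (r = 0.963), Zxdc (0.958), Lce1l (0.957), Gdf9 (0.953), Tdrp (0.946), Tmem108 (0.945), Car6 (0.944) and 1600020E01Rik (0.944). None of these 8 is in any of the ER gene lists used here. The 8 h arrays, which stand apart, hold the highest levels of the 10. Relative to control at 0 h, their mean without standardization was 0.49 in control and 1.43 in MMS at 8 h. In the other groups it was between -0.22 and 0.01. Whether the high r values reflect more than the 8 h arrays was not tested.

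Other genes of the pathway were counted from lists of known function. Of all genes tested, 28.7% rose and 25.0% fell at 8 h, and 25.0% rose and 19.4% fell at 24 h. At 1 h, when none of the 10 had moved, 3 of 13 ER stress sensors and transcription factors had risen, against 0.361% of all genes. These 3 were named after their values were seen. They were Atf4 (0.51 ± 0.07, limma adjusted p = 5.0e-05), the factor translated when Eif2ak3 phosphorylates eIF2 alpha, its target Ddit3 (0.56 ± 0.06, limma adjusted p = 4.1e-06), which encodes CHOP, and Ppp1r15a (0.52 ± 0.09, limma adjusted p = 0.0041), which directs dephosphorylation of eIF2 alpha. At 8 h 6 of the 13 rose and 2 fell (median 0.16), led by Atf3 (2.92), Ppp1r15a (2.05) and Ddit3 (1.90). The Golgi proteases that cleave Atf6, Mbtps1 and Mbtps2, fell by 0.41 and by 0.36. At 24 h 8 fell and 1 rose (median -0.45), with Chac1 at -2.74, Trib3 at -1.88 and Xbp1 at -1.22, while Mbtps2 was at 0.27.

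The ER chaperones outside the 10 split at 8 h. Of 18 other ER chaperones and co-chaperones 11 rose and 3 fell (median 0.24), against 28.7% and 25.0% of all genes. The J-domain proteins Dnajb9 (2.26, or 4.79-fold) and Dnajb11 (0.75), the latter the partner of Sdf2l1, were among the highest together with Calr3 (1.22), a calreticulin relative. Dnajc1 (-0.46), Cnpy4 (-0.45) and the disulfide reductase Dnajc10 (-0.31) fell. At 24 h 4 rose and 5 fell, near the shares over all genes of 25.0% and 19.4%. Dnajb9 was still at 0.78, Calr3 at 1.05 and Sdf2 at 0.24, with Dnajc25 at -0.98, the cargo receptor Lman1 at -0.72 and Dnajc1 at -0.71.

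The foldases outside the 10 leaned down at 24 h. Of 23 other ER foldases 7 rose and 6 fell at 8 h (median 0.09), close to the shares over all genes of 28.7% and 25.0%. Among them were the oxidase Ero1b at 1.43, the prolyl isomerase Fkbp11 at 0.56 and P4hb, the founding disulfide isomerase, at 0.41. Ppic (-0.66), Tmx3 (-0.55) and Erp29 (-0.36) were the lowest of those that fell. At 24 h 4 rose and 15 fell (median -0.27), against 25.0% and 19.4% of all genes. Fkbp11 (-1.43), Fkbp14 (-1.28) and Pdia5 (-1.12) fell most, and Ero1b (0.65), Pdia3 (0.52) and Tmx1 (0.44) rose.

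Genes of ER-associated degradation, which carries misfolded proteins to the proteasome, mostly rose at 8 h, 13 of 19 with 2 lower (median 0.44). Herpud1 (1.37), Sel1l (1.14) and Syvn1 (0.98), parts of 1 ubiquitin ligase complex, led them, and Erlec1 (-0.44) and Rnf5 (-0.26) fell. At 24 h 3 rose and 8 fell, with Herpud1 at -1.56, Ube2g2 at -0.64 and Sel1l at -0.51 against Edem2 (0.52), Vcp (0.30) and Derl2 (0.24). Of 28 genes of ER translocation and glycosylation 14 rose and 4 fell at 8 h (median 0.17), among them the signal recognition particle subunit Srp68 (0.71), its receptor subunit Srprb (0.59) and Ssr2 (0.52), with Sec63 (-0.38), Spcs3 (-0.35) and Ostc (-0.22) lower. At 24 h 4 rose and 15 fell (median -0.21), with Ostc at -1.11, Sec61b at -0.90 and Ssr4 at -0.71, and with Srp72 at 0.72, Sec11c at 0.58 and Rpn1 at 0.38. Over all genes 28.7% rose and 25.0% fell at 8 h, and 25.0% rose and 19.4% fell at 24 h.

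Most genes of the list of cytosolic heat shock chaperones rose at both times. That list also names Hspd1 and Hspe1, whose products are mitochondrial. Of 20 cytosolic heat shock chaperones 18 rose and 1 fell at 8 h (median 0.59), and 16 rose and 1 fell at 24 h (median 0.40), when the median of the 10 ER genes was -0.12. Hspa1a, the inducible cytosolic Hsp70, was at 3.42 (10.7-fold) and then 1.65, the Hsp110 gene Hsph1 at 1.52 and the co-chaperone Bag3 at 1.38 at 8 h, and the small heat shock genes Cryab at 1.86 and Hspb1 at 0.84 at 24 h. Dnajb4 was the gene that fell, at -0.24 and -0.17. Over all genes 28.7% rose and 25.0% fell at 8 h, and 25.0% rose and 19.4% fell at 24 h. The difference between the 2 lists was not tested.

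The clients of the ER went down. Of 19 secreted or matrix genes of fibroblasts 15 fell and none rose at 8 h (median -0.35), and all 19 fell at 24 h (median -0.85). Over all genes 25.0% fell at 8 h and 19.4% at 24 h. Col3a1 was at -1.21 at 8 h and -3.09 at 24 h, Thbs1 at -1.31 and Col6a3 at -0.92 at 8 h, and Col6a2 (-2.02) and Col1a1 (-2.00) at 24 h. Some of these, Col1a1 and Col3a1 among them, are also fibroblast markers. Of 15 genes of collagen maturation 5 rose and 2 fell at 8 h (median 0.01), against 28.7% and 25.0% of all genes. Mia3 (0.57), P3h1 (0.55) and the collagen chaperone Serpinh1 (0.30) were higher and Tram2 (-1.08) and P4ha3 (-1.02) lower. At 24 h 13 fell and Plod2 (0.49) rose (median -0.63), with the prolyl hydroxylases P4ha2 (-1.50), P4ha1 (-1.33) and P4ha3 (-1.03) lowest.

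**Figure D5:**
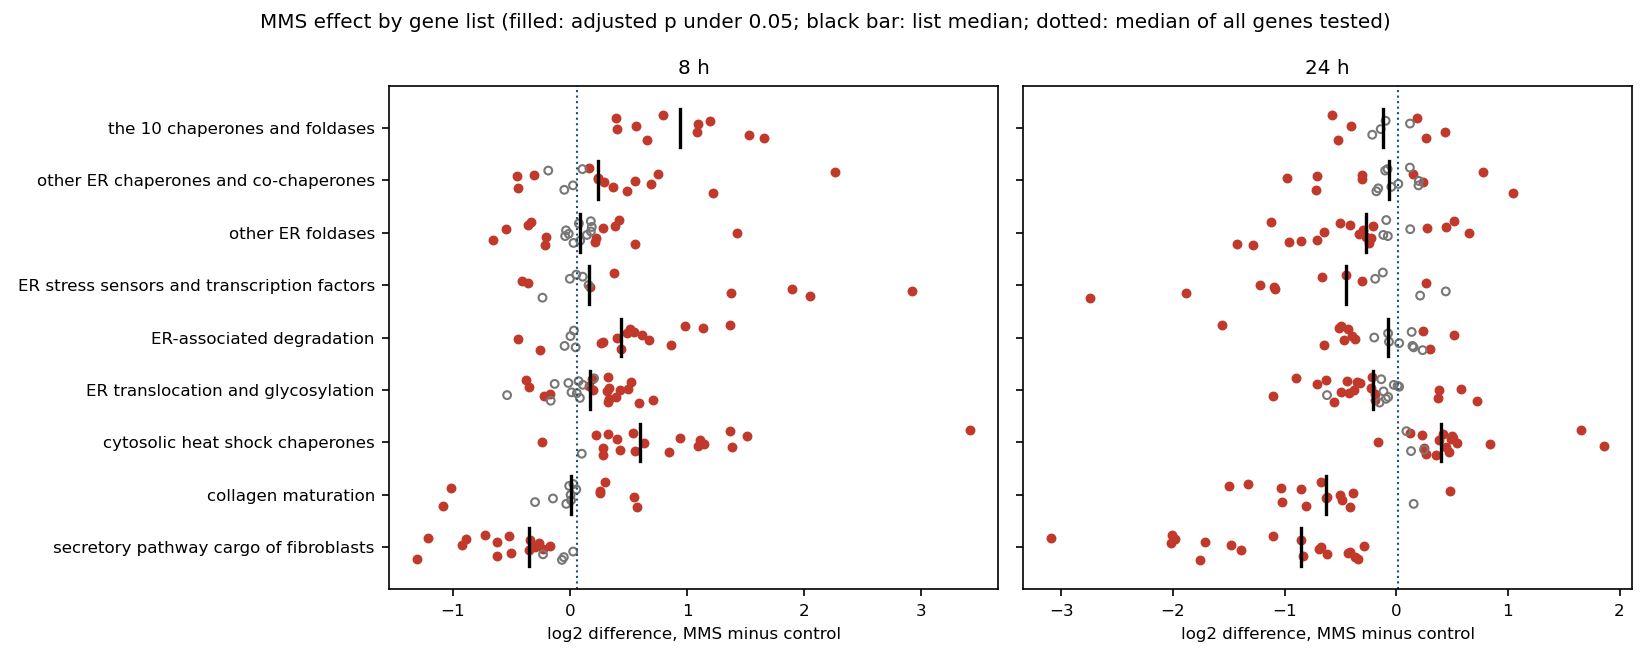
Log2 difference between MMS and control (x axis) at 8 h and 24 h for each gene (points) of the 10 chaperones and foldases and of 8 further lists (rows). Filled points have adjusted p under 0.05, black bars are list medians and the dotted line is the median of all genes tested. At 8 h the 10 genes lie at 0.39 or higher with a median of 0.94, and at 24 h their median is -0.12 whereas that of the cytosolic heat shock chaperones is 0.40.

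Genes that hold the ER stress element were few. Of 18 tested genes with a match, 13 rose and 2 fell at 8 h, a count that includes the 6 already described, which were chosen with earlier results known. Apart from these 6, 7 of 12 rose and 2 fell (median 0.23), against 28.7% and 25.0% of all genes. Canx (0.16), Ero1b (1.43), Syvn1 (0.98) and Derl3 (0.55) were those in the other ER lists, and all 4 rose. Alg12 (0.48), Zfp57 (0.38) and Ptgdr2 (0.28) also rose, and Spats2l (-0.92) and Adcy3 (-0.33) fell. At 24 h 5 of the 18 were higher and 5 lower, near the shares over all genes of 25.0% and 19.4%. Pdia4 and Sdf2l1, without a match in their windows, rose by 1.09 and 1.52 at 8 h, within the range of the 6 with one (0.39 to 1.66).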

How the data were processed

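Total RNA of 35 samples was hybridised by the study to 1-colour Affymetrix arrays, and the authors deposited log2 values of 45101 probe sets after robust multi-array averaging (RMA, version not given in the sources used here). The deposited log2 values ran from 2.44 to 14.6, and array medians from 4.98 to 5.09, so scale and direction are known and no further normalization was applied. Probe sets were named through the platform annotation, in which 34958 carried 1 gene symbol, 932 several and 9211 none. Only those with 1 symbol were used, and of them 99.4% had a gene identifier found in the RefSeq table. Genes whose group means all stayed below the limit of log2 4.40, the 40th percentile over the whole table, were left out (4059), and 14135 were tested. Among the 23 probe sets of the 10 genes, 22 reached that limit.

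One limma model (limma 3.58.1, R 4.3.3) of the 9 group means was fitted to all 35 arrays (26 residual and 2.99 prior degrees of freedom), with moderated errors, 95% confidence intervals and Benjamini-Hochberg adjustment over all tested genes in each of 12 contrasts. The study's own array software was not used here. Arrays give no read depth, and their number limits the precision. The script was tested on simulated data. No 2 arrays were identical, and Pearson's r within groups was 0.954 to 0.997.

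The 10 genes, the gene lists and the marker lists were chosen with earlier results of these data known. Genes were named by a rule: the 10 at every time, up to 3 genes per direction with the largest called difference from each other list at 8 and 24 h, and the 8 genes most correlated with the mean of the 10. Marker sums are linear signals. Motifs were searched on both strands of RefSeq windows of 300 bases. Alternatives covered normalization, filter, probe sets, model, reference group and left-out arrays.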

Additional observations from a re-analysis of the deposited data

Results flagged for a closer look

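In 5 of 80 groups of 4 arrays of the 10 genes, 1 array lay far from the other 3 by Dixon's criterion, which chance alone meets in about 1 in 20 groups. Hsp90b1 was at 13.3 on MMS 8 h replicate 2, against 13.04 to 13.08 on the other MMS arrays at 8 h. On control 72 h replicate 1 there were 3 such values, Hsp90b1 at 13.01 (others 12.85 to 12.87), Sdf2l1 at 6.43 (others 6.80 to 6.84) and Creld2 at 10.12 (others 9.65 to 9.68). Sdf2l1 was at 6.75 on control 1 h replicate 4, against 7.01 to 7.04 on the others.

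The MMS effect differed between times by the limma interaction contrast in 24 cases. The effect at 8 h exceeded that at 1 h on the log2 scale by 0.75 for Hspa5, 0.41 for Hsp90b1, 1.15 for Hyou1, 0.93 for Pdia4, 0.57 for Pdia6, 0.43 for Calr, 0.82 for Dnajc3, 1.44 for Sdf2l1, 1.70 for Creld2 and 0.61 for Manf (adjusted p at most 0.0027). The effect at 24 h minus that at 8 h was -1.37 for Hspa5, -0.21 for Hsp90b1, -1.29 for Hyou1, -0.97 for Pdia4, -0.97 for Pdia6, -0.54 for Calr, -0.65 for Dnajc3, -1.74 for Sdf2l1, -1.39 for Creld2 and -1.18 for Manf (limma, adjusted p at most 0.031). Hspa5 had the lowest adjusted p of the 10 in that contrast (5.3e-14). From 24 to 72 h the effect changed by 0.24 for Hspa5, 0.36 for Manf, -0.48 for Dnajc3 and -0.50 for Creld2.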

How the results depend on the processing

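All 10 genes were higher after MMS at 8 h in each of the settings listed here, leave-one-out included, except against control at 0 h, where 8 were (Pdia6 and Calr did not pass), and with the second Pdia6 probe set, which was at -0.11, and at 24 h 3 higher and 3 lower genes passed in every leave-one-out fit. Of 2656 values recomputed for the 10 genes, 2490 kept their direction and side of the threshold or differed in sign with neither value past it (87 of these), 105 lost the call, 29 gained it and 32 turned. Centring each array on its median moved the median of all genes in the contrast of 24 h with 8 h from -0.03 to -0.15 and in that of 72 h with 24 h from -0.04 to 0.07. It left 1 gene higher at 24 h, 2 lower at 72 h, 0 higher in control at 72 h against 0 h or 24 h, and 1 lower in the contrast of 72 h with 24 h. Renewed quantile normalization and the replicate block each left 0 genes higher in control at 72 h against 24 h. For the block, Hspa5 was then at 0.15 (limma, adjusted p = 0.057), and no other call among the 10 genes changed. Whether replicate numbers pair arrays was not settled, and the main model held no replicate block. Of 15 same-numbered pairs of a control and an MMS array 8 had deviations correlated over 0.1 (-0.26 to 0.31). In 8 pairs the own number correlated best among the control arrays of that time. Without the filter, 2 genes were lower at 72 h and 0 higher in control at 72 h against 24 h. With the mean of all probe sets, 5 were lower at 24 h, 0 lower in control at 1 h, 0 higher in control at 72 h against 0 h or 24 h, and 1 higher and 1 lower in the contrast of 72 h with 24 h. With only the compared groups in the model, 2 were lower at 72 h, 0 higher and 1 lower in control at 72 h against 0 h, 0 higher against 24 h, and 1 higher and 1 lower in the contrast of 72 h with 24 h. Array weights gave 1 higher at 72 h, 3 lower in control at 1 h, 6 lower in control at 24 h and 0 higher in control at 72 h against 0 h. Without the intestinal arrays 0 were higher in control at 72 h against 0 h. Against control at 0 h, 5 were lower in MMS at 24 h, and Pdia6 was at -0.029 at 8 h. Leaving out 1 array gave 0 to 1 lower in control at 1 h, 2 to 3 lower in control at 8 h, 0 to 1 lower in control at 24 h, 0 to 1 higher and 2 to 3 lower in control at 72 h against 0 h, 0 to 2 higher against 24 h, 2 to 4 lower after MMS at 72 h, 9 to 10 lower in the contrast of 24 h with 8 h, and 1 to 2 higher and 1 to 2 lower in that of 72 h with 24 h.

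Most turned values belong to Dnajc3. Its mean over 5 probe sets gave -0.36 after MMS at 24 h, 0.010, -0.26 and 0.13 in control at 1, 8 and 72 h against 0 h, and 0.16 in the contrast of 72 h with 24 h. In the same order its probe set 1433887_at gave -0.61, 0.099, -0.24, 0.34 and 0.38, and 1449373_at gave -0.52, 0.16, -0.33, 0.46 and 0.24. At 24 h 1419162_s_at gave -0.28, then 0.21 and 0.097 in control at 1 and 72 h and 0.28 in the contrast, and 1419163_s_at gave -0.83, then -0.79 and 0.12 in control at 8 and 72 h and 0.38. For Pdia6, 1430983_at gave -0.11 after MMS at 8 h, 0.22 in control at 8 h, -0.32 in the contrast of 8 h with 1 h and 0.0029 in that of 24 h with 8 h. Pdia4 with 1450620_at was at -0.29 after MMS at 24 h and -0.073 in control at 72 h, Hyou1 with 1423290_at at -0.26 in control at 72 h, and Hspa5 with 1447824_x_at at 0.58 in control at 8 h. The cause was not tested. Probe sets near the detection limit (1430983_at, 1450620_at) allow no firm direction.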

Other observations

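On the control arrays the ER lists differed between 0 and 8 h as well (limma). Of 18 other ER chaperones and co-chaperones 3 rose and 8 fell (median log2 difference -0.10), of 23 other ER foldases 5 rose and 11 fell (median -0.05), of 19 genes of ER-associated degradation 5 rose and 10 fell (median -0.18), and of 28 genes of ER translocation and glycosylation 7 rose and 11 fell (median -0.04). Of 13 ER stress sensors and transcription factors 4 rose and 4 fell, and of 20 cytosolic heat shock chaperones 7 rose and 7 fell. Collagen maturation (1 rose and 10 fell of 15, median -0.58) and secretory cargo (2 rose and 13 fell of 19, median -0.60) had the lowest medians, where the 10 chaperones and foldases had a median of 0.27 with 5 higher and 3 lower. Over all genes 35.8% rose and 23.6% fell.

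Of the remaining marker lists, 5 hepatocyte, 5 erythroid, 5 endothelial and 6 neuronal genes were tested after MMS at 8 h. Among them 1, 0, 2 and 2 rose and 0, 0, 1 and 3 fell. The summed hepatocyte signal reached 1678 on control 0 h replicate 3, which also carried intestinal transcripts, against at most 301 in the other groups.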
